A study of Oryza sativa with 6 samples.

Results

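The Na+PEG immunoprecipitation set DNA that had been folded with Na+ and pulled down by the BG4 antibody against input DNA that had not been pulled down. Its members are the peaks called over input in both Na+PEG libraries. Reproducible IP-G4s, the DNA G-quadruplexes (G4s) recovered by the antibody, were taken as the segments shared by at least 1 bp between the lists of replicates 1 and 2. Replicate 1 held 864 and replicate 2 held 672 peaks on the stretch of Chr1 that both lists cover, and 545 segments were shared. The replicate lists as used here stop early on Chr1 and are therefore only the beginning of each library's peaks. The 4 of them hold 3477 complete lines, of which 864 and 868 belong to Na+PEG replicates 1 and 2.

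The source was genomic DNA of wild-type rice (Oryza sativa) seedlings, which were cross-linked with formaldehyde before the DNA was prepared. For the Na+PEG libraries, fragmented DNA was denatured and reassociated in a buffer with PEG200 and NaCl, whereas the K+PEG libraries of the same series were folded with KCl and the 2 input libraries had no antibody step. The buffers for antibody binding and for washing held KCl for every immunoprecipitation, so that Na+ was the cation of the folding step only. The DNA was folded as purified fragments, and the libraries therefore hold no measurement of G4s in chromatin or in living cells.

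A G4 is a structure of 4 strands in which guanines pair into flat tetrads that stack on each other, and a monovalent cation sits between or within the tetrads. K+ is known to stabilise most G4s better than Na+, and PEG mimics the crowding inside a cell. Stacked tetrads mostly form from runs of neighbouring guanines. The oligos that the study synthesised for a Na+-specific locus and for loci shared by both conditions show such runs, and they are given as examples of the sequences the antibody is set against. Capitals mark runs of at least 3 guanines, and each is written 5′ to 3′.

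Na+-specific locus 1: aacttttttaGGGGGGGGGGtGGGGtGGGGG

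Common locus 1: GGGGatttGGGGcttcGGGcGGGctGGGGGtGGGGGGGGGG

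Common locus 2: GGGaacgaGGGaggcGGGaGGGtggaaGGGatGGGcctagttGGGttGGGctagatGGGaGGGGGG

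The oligo of the Na+-specific locus was 31 bases long and had 3 such runs, the longest of 10 guanines. A run was counted once whatever its length, and shorter runs were not counted. The oligos of the common loci had 6 runs in 41 bases and 10 runs in 66 bases. Guanine made up 61.3% of the Na+-specific oligo and 70.7% and 60.6% of common loci 1 and 2. These oligos were not placed on the genome here, and no peak value belongs to them. For its Na+-specific sequence, the study reports a circular dichroism amplitude that was similar with Na+ and K+. In its dot blot, the signal of that sequence was stronger with NaCl and PEG200 than with KCl and PEG200.

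The stretch covered by both lists ran from position 1 to 6236439 of Chr1 (6.24 Mb) in the MSU v7.0 build. Both Na+PEG libraries were called against input at a permissive threshold, and the largest p-value on the stretch was 0.00065 in replicate 1 and 0.00056 in replicate 2, with largest q-values of 0.0094 and 0.011. By the study's summary of its sequencing, replicate 1 had more unique reads than replicate 2. It also had more peaks, and with 1 library at each depth the effect of depth and any other difference between the libraries cannot be told apart. The input enters through the authors' peak calling, which set the peaks, their extent, their p-values and their fold enrichment against it. No input track was used here, and neither gene positions nor base composition were analysed.

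IP-G4s under Na+PEG were spread along the whole stretch. Replicate 1 had 139 peaks per Mb, which covered 5.29% of the stretch, and replicate 2 had 108 peaks per Mb, which covered 4.13%. The reproducible segments numbered 87.4 per Mb and covered 2.93%. In bins of 1 Mb, the segments numbered 92, 86, 83, 93, 79 and 94 from the first to the sixth Mb. Replicate 1 had between 125 and 156 peaks in these bins, and replicate 2 had between 92 and 119. The fifth Mb was lowest in replicate 1, in replicate 2 and in the shared segments.

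On a finer scale, all 62 complete bins of 100 kb held at least 2 reproducible segments, with a median of 8 and a maximum of 16. The variance of the counts over bins was 1.09 times their mean, which is near the value of 1 for counts scattered independently at an even rate. For the peaks of replicates 1 and 2 the ratio was 1.14 and 1.22. The bin with the most segments lay from 3000001 to 3100000 and held 16, with 22 peaks in replicate 1 and 19 in replicate 2. It was followed by the bins from 400001 to 500000 and from 3800001 to 3900000, with 15 segments each. The first of these had 18 and 17 peaks in replicates 1 and 2, and the second had 17 in each.

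The libraries ranked the bins alike to a moderate degree. Replicate 1 had more peaks than replicate 2 in 49 of 62 bins, the same number in 7 and fewer in 6. Spearman's rho between the peak counts of the replicates was 0.659 across the 62 bins, and Pearson's r was 0.681. The bins lie side by side on 1 chromosome and share the same 2 libraries, so that these coefficients only describe the stretch.

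**Figure D1:**
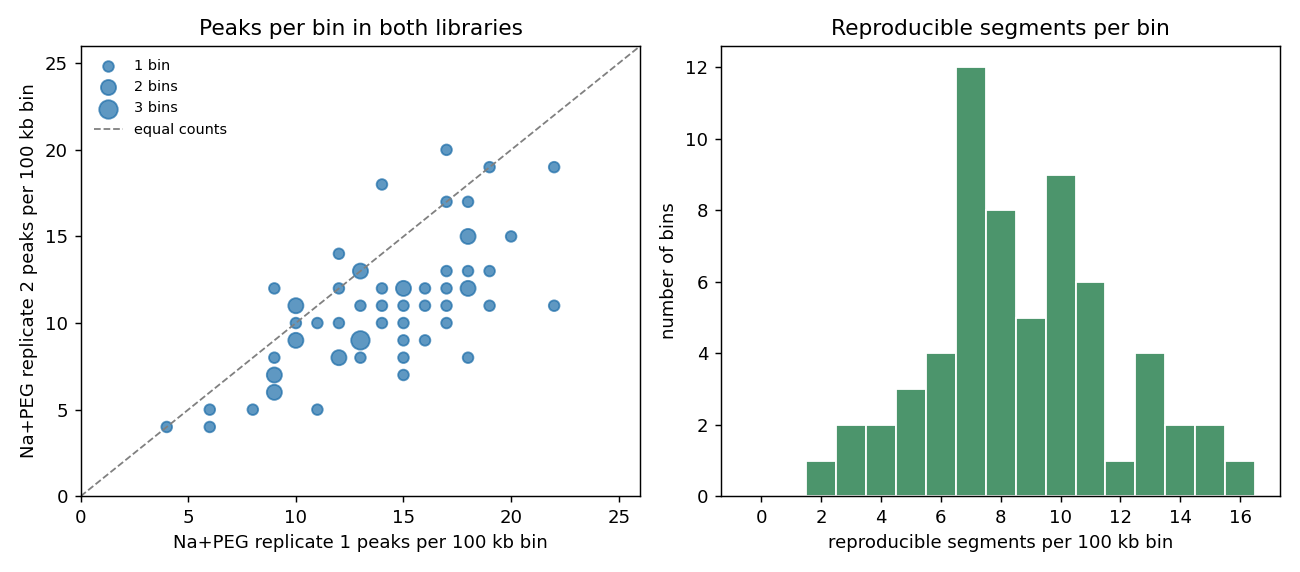
The left panel plots the peaks of Na+PEG replicate 1 (x axis) against those of replicate 2 (y axis) in bins of 100 kb on Chr1, with the area of a point showing how many bins share its position and the dashed line showing equal counts. The right panel shows how many of the 62 bins held each number of reproducible segments, from 2 to 16 with a median of 8. Most points lie below the line, since replicate 1 had more peaks in 49 bins.

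Reproducibility differed by the direction in which it was counted. Of the 672 peaks of replicate 2, 531 (79.0%, 95% Wilson interval 75.8 to 81.9) overlapped a peak of replicate 1, and 141 did not. Of the 864 peaks of replicate 1, 539 (62.4%, 59.1 to 65.6) overlapped a peak of replicate 2, and 325 did not. These intervals cover counting error only. By the stricter criterion of the summit, the base with the highest signal in a peak, 503 summits of replicate 2 (74.9%, 71.4 to 78.0) lay inside a replicate 1 peak, where replicate 1 peaks covered 5.29% of the stretch. Likewise, 505 summits of replicate 1 (58.4%, 55.1 to 61.7) lay inside a replicate 2 peak, where replicate 2 peaks covered 4.13%.

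Most overlaps were of 1 peak with 1 peak. In replicate 1, 533 peaks had 1 partner and 6 had 2, and in replicate 2, 517 had 1 partner and 14 had 2. No peak had more than 2 partners. The peaks with 2 partners gave 40 of the 545 segments. Peaks without overlap came close to the other list in part. Of the 325 in replicate 1, 45 lay less than 500 bp from a replicate 2 peak, and of the 141 in replicate 2, 32 lay that close to a replicate 1 peak. The nearest of them were 16 bp away in both lists, while the shortest shared segment was 46 bp long.

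The peaks that overlapped the other replicate were more enriched over input than those that did not. In replicate 1, the median fold enrichment was 3.86 (quartiles 3.26 and 4.86) for overlapping peaks and 3.14 (2.75 and 3.63) for peaks without overlap. In replicate 2 it was 3.97 (3.37 and 4.92) for overlapping peaks and 3.22 (2.89 and 3.62) for the others. The difference had the same direction and a similar size in both libraries, although the ranges overlapped widely. Fold enrichment reached 14.2 in replicate 1 and 20.6 in replicate 2 among overlapping peaks, and 6.06 in replicate 1 and 6.20 in replicate 2 among peaks without overlap. Peaks of the same genome are not independent replicates, and no test was made across them.

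When each list was divided into 4 equal classes by fold enrichment, the share of overlapping peaks increased with every class. In replicate 1 it was 39.4% (95% Wilson interval 33.1 to 46.0) in the weakest class, 53.7% and 65.7% in the middle classes and 90.7% (86.1 to 93.9) in the strongest class, which held peaks from 4.34-fold. In replicate 2 it was 60.7% (53.2 to 67.8), 70.8%, 85.7% and 98.8% (95.8 to 99.7), with the strongest class from 4.68-fold. Each class held 216 peaks in replicate 1 and 168 in replicate 2. Of the 50 most enriched peaks of each library, all 50 overlapped a peak of the other library, and 27 of them did so with a peak that was itself among the 50 most enriched there. The strongest IP-G4s were thus found in both libraries, whereas the order among them was shared in part.

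Length moved with strength, and both come from the same peak calling, so that they are not independent measures. The median length was 251.5, 269.5, 337 and 432 bp from the weakest to the strongest class in replicate 1, and 267, 285, 303.5 and 455.5 bp in replicate 2. Spearman's rho between fold enrichment and length was 0.533 across the 864 peaks of replicate 1 and 0.447 across the 672 peaks of replicate 2. A longer peak also has more bases that can overlap, and the part of length in the shares by class was not tested. The fold enrichment and the −log10 p-value ranked the peaks of a library almost alike, with a rho of 0.981 in replicate 1 and 0.980 in replicate 2.

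**Figure D2:**
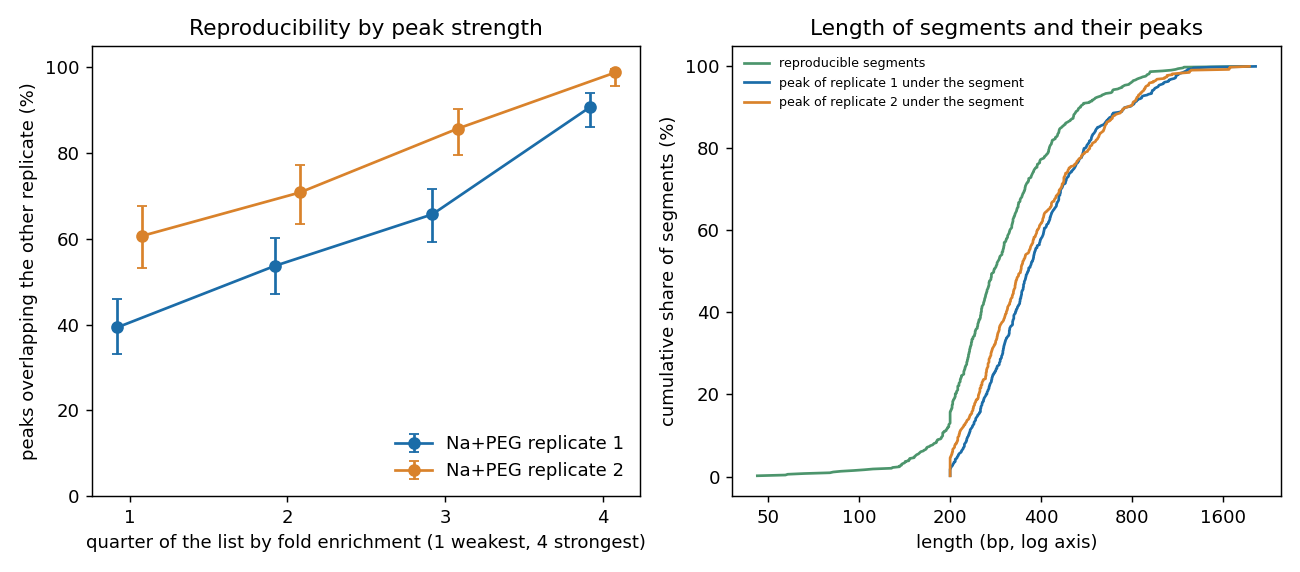
The left panel plots the share of peaks that overlap the other replicate (y axis, percent, with 95% Wilson intervals) in 4 classes of fold enrichment from the weakest to the strongest (x axis), and it reaches 90.7% in replicate 1 and 98.8% in replicate 2. The right panel plots the cumulative share of the 545 segments (y axis, percent) by length in bp on a log axis, for the segments and for the whole peaks of replicates 1 and 2 that they come from. The curve of the segments lies to the left, and only the segments reach below 200 bp.

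The peaks as called were of similar length in the libraries, with a median of 315.5 bp in replicate 1 (quartiles 248.5 and 439.75) and 314.5 bp in replicate 2 (246.75 and 444.75). The shortest peak was 200 bp long in both, a length held by 35 peaks of replicate 1 and 33 of replicate 2. The study does not state whether its peak calling set a lower limit on length. The longest was 2053 bp in replicate 1 and 1959 bp in replicate 2. The overlapping peaks were longer than the others in each library. Their median was 360 bp against 265 bp for peaks without overlap in replicate 1, and 336 bp against 255 bp in replicate 2.

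The reproducible segments had a median length of 279 bp (quartiles 222 and 382), a mean of 335 bp (SD 191 across segments, n = 545) and a range from 46 to 1959 bp. A segment took up a median of 73.8% of the longer peak it came from, and 268 segments (49.2%) were equal to 1 of their peaks in full. Segments shorter than the shortest called peak numbered 70, or 12.8%.

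The fold enrichment given for a segment is that of the whole peaks it comes from, a ratio at their summits. Both summits lay inside the segment in 472 of 545 cases. The segment with the highest mean fold enrichment was also the longest. It lay from 4232018 to 4233976 on Chr1 (1959 bp) and had a fold enrichment of 14.2 in replicate 1 and 20.6 in replicate 2. The summits of the replicates, at 4233005 and 4233024, were 19 bp apart. Both libraries thus placed their strongest overlapping peak at the same position.

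The next segments by mean fold enrichment were all stronger in replicate 2. The segment from 3899562 to 3900066 (505 bp) was enriched 11.0-fold in replicate 1 and 14.2-fold in replicate 2. The segment from 5921592 to 5922669 (1078 bp) had values of 9.16 in replicate 1 and 13.2 in replicate 2. These were followed by the segment from 4337893 to 4338790 (898 bp), with a fold enrichment of 8.67 in replicate 1 and 13.3 in replicate 2. The fifth, from 3322689 to 3323335 (647 bp), differed most between the replicates among the 5, with 6.78 in replicate 1 and 13.2 in replicate 2. The summits of these 4 segments were between 22 and 89 bp apart. The remaining long segments were less enriched. The segment from 3133633 to 3134821 (1189 bp) had a fold enrichment of 6.61 in replicate 1 and 5.04 in replicate 2, and the one from 5028030 to 5029209 (1180 bp) had values of 7.47 in replicate 1 and 7.79 in replicate 2. Length and strength were therefore not in the same order even among the longest segments.

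Across all 545 segments, the fold enrichment of replicate 2 was 1.04 times that of replicate 1 at the median (quartiles 0.874 and 1.25), and it was higher in replicate 2 in 308 segments (56.5%). The values of the replicates were within a factor of 2 of each other in 539 segments (98.9%). Fold enrichment spanned a narrow range among overlapping peaks, with quartiles of 3.26 and 4.86 in replicate 1 and 3.37 and 4.92 in replicate 2. The share for peaks paired regardless of position was not computed, so that the 98.9% does not by itself show agreement. Spearman's rho between the replicates was 0.546, and Pearson's r on the log2 scale was 0.622. These coefficients are across segments of 1 chromosome that were called in both libraries, and some segments share a peak and its value.

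**Figure D3:**
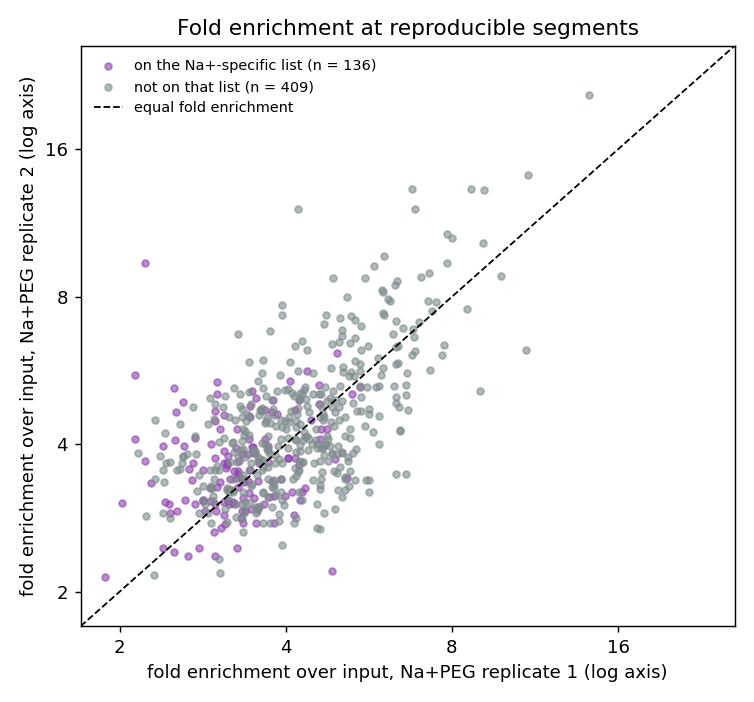
Each point is 1 of the 545 reproducible segments. The x axis gives the fold enrichment over input of its whole Na+PEG replicate 1 peak and the y axis that of its replicate 2 peak, both on log axes. Purple points mark the 136 segments on the series-wide Na+-specific list and grey points the other 409, and the dashed line marks equal values. The strongest segment lies at 14.2 and 20.6, and the purple points gather at lower values than the grey ones.

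Summits lay near the middle of the peaks. On a scale from 0 at the start to 1 at the end of a peak, the median position was 0.494 in replicate 1 (quartiles 0.397 and 0.591) and 0.499 in replicate 2 (0.371 and 0.622). Between 0.25 and 0.75 lay 88.3% of the summits in replicate 1 and 84.7% in replicate 2. In base pairs, the summit was a median of 156 bp from the start in replicate 1 and 155 bp in replicate 2. The median distance to the nearer edge was 128 bp in replicate 1 and 122 bp in replicate 2.

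Long peaks had their summits at more varied positions. Among the 156 peaks of at least 500 bp in replicate 1, the quartiles of the position were 0.316 and 0.681, against 0.412 and 0.576 among the 708 shorter peaks. In replicate 2, the quartiles were 0.279 and 0.706 among 125 peaks of at least 500 bp, against 0.393 and 0.604 among the 547 shorter ones. The medians of all 4 sets lay between 0.468 and 0.502, so that the wider spread was on both sides of the middle.

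The replicates placed their summits close to each other where their peaks overlapped. Overlap by itself limits this distance, and the distance to expect from overlap alone was not computed. The distance between paired summits had a median of 50 bp (quartiles 19 and 97) and a maximum of 1269 bp. It was at most 50 bp in 275 segments (50.5%) and at most 100 bp in 413 (75.8%), and in 7 segments both libraries placed the summit on the same base. Both summits lay inside the shared segment in 472 cases (86.6%), and neither did in 9. The distance was smaller in stronger segments, with medians of 70.5, 49, 40 and 36 bp in 4 classes of increasing mean fold enrichment.

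**Figure D4:**
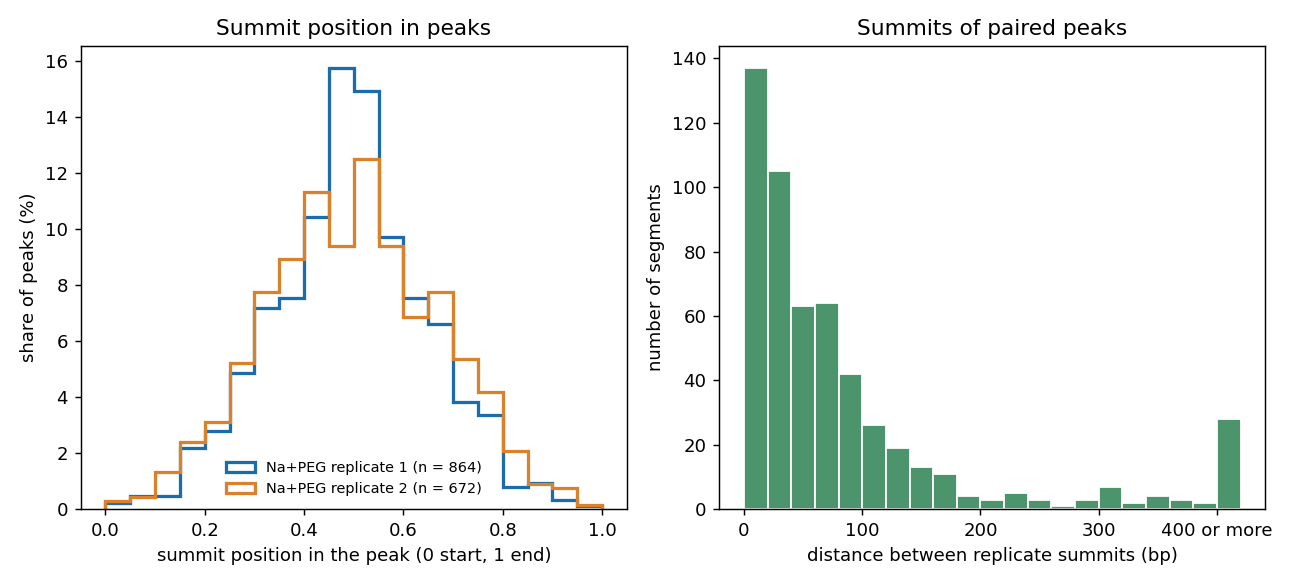
The left panel shows the share of peaks (y axis, percent) by the position of the summit within the peak (x axis, 0 at the start and 1 at the end) for 864 peaks of Na+PEG replicate 1 and 672 of replicate 2, centred at 0.494 and 0.499. The right panel shows the number of segments (y axis) by the distance between the summits of the replicates in bp (x axis), where distances of 400 bp or more share the last bar. The median distance was 50 bp.

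Neighbouring reproducible segments were a median of 7152 bp apart, measured from the end of 1 segment to the start of the next (quartiles 2829 and 14993.5 bp, n = 544 gaps). The mean gap was 11081 bp with an SD of 12365 bp. Within the single libraries, the median gap between peaks was 4243 bp in replicate 1 and 5570 bp in replicate 2. Gaps under 1000 bp made up 11.9% (65 gaps), and the smallest was 114 bp. Where a peak had 2 partners (6 peaks in replicate 1 and 14 in replicate 2), the gap between its segments lay inside that peak. Such gaps are not spacing between peaks that were separate in both libraries. The smallest gap was of this kind, between segments ending at 5464740 and starting at 5464855 under a replicate 1 peak of 667 bp. At the other end, 10% of the gaps were longer than 25756 bp, and the longest 10% of the gaps held 36.8% of the distance between segments.

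The longest stretches without a reproducible IP-G4 still held single peaks. The longest ran from 2292438 to 2376615 (84178 bp) and held 2 whole peaks of replicate 1 and 1 of replicate 2 that did not overlap each other. The next, from 1639685 to 1718976 (79292 bp), held 6 peaks of replicate 1 and 2 of replicate 2. In the gap from 876681 to 953296 (76616 bp) the order was reversed, with 2 peaks of replicate 1 and 3 of replicate 2. None of the 3 was therefore free of BG4 signal over input in either library.

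The series-wide list of Na+-specific IP-G4s was made by the study from the reproducible peaks of both conditions, by a rule that it does not spell out. On the stretch it held 136 entries, all identical in position to 1 of the 545 segments (a share of 24.95%). They belonged to the weaker members in both Na+PEG libraries. Their median fold enrichment was 3.28 (quartiles 2.95 and 3.72), against 4.20 (3.46 and 5.11) for the other 409 segments, in replicate 1, and 3.53 (3.04 and 4.10) against 4.18 (3.53 and 5.15) in replicate 2. They were also shorter, with a median of 227.5 bp (199.5 and 269.25) against 310 bp (236 and 426). In 4 classes of mean fold enrichment from the weakest to the strongest, 47.1%, 33.8%, 14.0% and 5.11% of the segments were on the list. None of the 5 strongest and 3 longest segments was on it. The distance between summits was a median of 61 bp for segments on the list and 46 bp for the others, and the position of the summit in the peak had medians between 0.487 and 0.509 in all of these sets. No comparison with the K+PEG libraries was made here, but membership of the list already rests on peak calls under both conditions. Weaker peaks also overlapped the other Na+PEG replicate less often. In the weakest and strongest classes that share was 39.4% and 90.7% in replicate 1, and 60.7% and 98.8% in replicate 2. How far the calling threshold sets the lower enrichment and shorter length on the list was not tested.

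Across the genome, the Na+-specific list held 8784 IP-G4s on 12 chromosomes, or 23.5 per Mb. The length of a chromosome was taken as the last position of any specific IP-G4 on it, and the lengths summed to 373 Mb. The density was 21.8 per Mb on the stretch of Chr1, below the value of the genome and near the 21.9 of the whole chromosome.

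Densities differed moderately between chromosomes, and the highest was 1.21 times the lowest. Chromosome 4 had the highest density with 25.7 per Mb (912 IP-G4s, 95% Poisson interval 24.0 to 27.4), followed by chromosome 12 with 25.1 (691 IP-G4s, 23.3 to 27.1) and chromosome 10 with 24.9 (577 IP-G4s, 22.9 to 27.0). The lowest were chromosome 2 with 21.2 per Mb (761 IP-G4s, 19.7 to 22.7), chromosome 1 with 21.9 (945 IP-G4s, 20.5 to 23.3) and chromosome 7 with 22.6 (672 IP-G4s, 21.0 to 24.4). The intervals of chromosomes 4 and 2 did not overlap, whereas that of chromosome 7 overlapped those of all 3 densest chromosomes. Among neighbours in this order the intervals always overlapped. The intervals cover counting error only and treat IP-G4s as independent counts. Over bins of 1 Mb the variance was 1.68 times the mean, more than independent counts would vary, so that the intervals may be too narrow. Chromosomes 4 and 2 were also picked as the highest and lowest of 12. The list has no value of a single library, so that the spread between replicates could not be given. The other 6 chromosomes had between 22.8 and 24.6 per Mb. Among IP-G4s of at least 200 bp the order changed at the top, where chromosome 12 had 19.1 and chromosome 4 had 18.2 per Mb. Chromosome 4 then also lay below chromosomes 11 (18.44), 10 (18.42), 9 (18.41) and 5 (18.34). Its place as the densest chromosome thus depended on IP-G4s shorter than 200 bp.

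The chromosomes were alike in the length of their Na+-specific IP-G4s, with medians between 220 bp on chromosome 4 and 232 bp on chromosome 2. The densest chromosome thus had the shortest and the sparsest the longest median, although these differ by 12 bp only. The share of a chromosome covered ranged from 0.516% on chromosome 2 to 0.622% on chromosome 12. The median gap between neighbours was 26711 bp over all chromosomes (quartiles 9765 and 58770 bp), from 24672 bp on chromosome 4 to 30853 bp on chromosome 2. The longest gap, of 457440 bp, was on chromosome 11.

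Single bins of 1 Mb spread over a wider range than whole chromosomes. In 367 complete bins of 1 Mb the list held a median of 23 IP-G4s (quartiles 19 and 27), with a variance over bins of 1.68 times the mean. The bin with the most, 43, lay on chromosome 11 from 16000001 to 17000000, and the bin with the fewest, 8, on chromosome 7 from 27000001 to 28000000. Every chromosome had bins below and above the median of the genome, with a lowest count between 8 and 15 and a highest between 32 and 43.

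**Figure D5:**
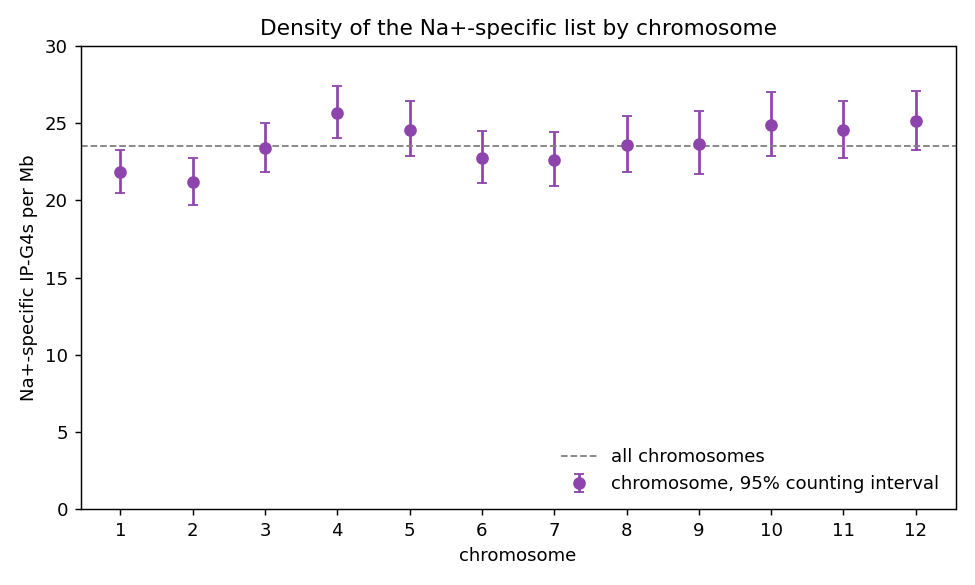
Points show the Na+-specific IP-G4s per Mb (y axis, from 0) on each of the 12 chromosomes (x axis), bars the 95% Poisson interval of the count, and the dashed line the 23.5 per Mb of all chromosomes. Densities range from 21.2 on chromosome 2 to 25.7 on chromosome 4.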

How the data were processed

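Per the labels and the study's methods, Trim Galore was used by the authors for trimming and BWA for alignment to the MSU v7.0 genome, duplicates were removed, and MACS called the peaks of each library against input. The fold enrichment over input, a ratio at the summit, and the −log10 p-value and q-value of each peak are the deposited values of the authors' peak caller. The Na+-specific list holds positions only.

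The replicate lists used here cover the beginning of Chr1, and incomplete last lines were left out. The stretch ends where the list of replicate 1 ends. Segments came from bedtools 2.31.1 intersect (at least 1 bp), and statistics from Python 3.11.15 with numpy 2.4.6, pandas 2.3.3 and scipy 1.17.1. The interval operations were tested on simulated data. Intervals of shares are Wilson intervals, and those of counts are exact Poisson intervals. With 1 condition, no test was made. The members and lists were chosen with earlier results of these data known. Named were the 5 strongest and 3 longest segments, the 3 densest bins, the 3 longest gaps and the 3 densest and 3 sparsest chromosomes. Base composition, guanine runs in peaks and gene positions were not analysed here, since no sequence or annotation of this build was used.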

Additional observations from a re-analysis of the deposited data

How the results depend on the processing

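In all, 51 values were recomputed for 19 results. Of these, 24 stayed within the spread between replicates or the counting interval, or, for the number of segments, within a factor of 1.5. For 12 of the 24, the summit position and the 5 strongest segments with 1 library left out, this was so by construction, since a mean of 2 values is always closer to each of them than their SD, and these say nothing about stability. The other 27 moved and none reversed. For density, length and spacing, the spread used was that of all peaks of the single libraries, not of segments. It was 0.71 bp for length and 21.8 per Mb for density. A median length of 276.5 bp against 279 bp therefore counted as moved, and a density of 72.5 against 87.4 per Mb did not. The counts of moved values thus depend on these yardsticks. With the 50% of each list that had the smallest p-values, fewer peaks entered by construction. There were then 248 segments, 39.8 per Mb with a median gap of 14168 bp, an overlap of 72.2% of the smaller list and a median length of 344 bp. The fold enrichment of overlapping peaks, as the mean of the library medians, was 4.83 (against 3.91 from the full lists). The summit position was 0.488. Where each peak of a pair had to be covered to at least 50%, the share was 67.3%, the median length 289.5 bp and the median gap 9251 bp. Overlapping peaks merged to whole regions had a median length of 430 bp, and on the stretch covered by all 4 lists it was 276.5 bp. With 1 library left out, the peaks of the other were counted without a requirement of overlap. They numbered 672 (without replicate 1) to 864 (without replicate 2), or 108 to 139 per Mb, with median lengths from 314.5 to 315.5 bp, gaps from 4243 to 5570 bp, fold enrichments from 3.53 to 3.76 and summit positions from 0.494 to 0.499. Na+-specific IP-G4s of at least 200 bp numbered 17.6 per Mb, with 6 of 6 named chromosomes lower by construction. Spearman's rho with the densities of the full list was 0.853 over 12 chromosomes. Chromosome 12 was then highest with 19.1 per Mb, and chromosome 4 had 18.2, below chromosomes 5, 9, 10 and 11 as well. No paired analysis was possible because no result comes from a test between groups. The lists give no signal below the calling threshold, so that a peak missing in the shallower library is not known to lack signal there.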

Other observations

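Segments whose fold enrichment differed by more than a factor of 2 between the replicates were few, and most came from peaks that overlapped 2 peaks of the other library. These segments were singled out after their values were seen. The fold enrichment differed by more than a factor of 2 in 6 of 545 segments, and 4 of the 6 belonged to a peak with 2 partners. Such peaks gave 40 of all 545 segments, and each lends its 1 value to both of its segments. The most unequal was the segment from 5889999 to 5890198 on Chr1, where a peak of 200 bp with a fold enrichment of 2.23 in replicate 1 lay under a peak of 1688 bp with a fold enrichment of 9.38 in replicate 2. The same replicate 2 peak also overlapped the segment from 5890370 to 5891506, where replicate 1 had a fold enrichment of 7.85 and the summits were 16 bp apart, against 1269 bp in the first segment. The first segment is on the Na+-specific list and the second is not. In total, 7 of the 136 segments on that list came from peaks with 2 partners, and 34 were shorter than the shortest called peak. The segment from 5987404 to 5987861 was the only 1 of the 6 with the higher value in replicate 1, with a fold enrichment of 4.86 in replicate 1 and 2.21 in replicate 2.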
